A study of Mus musculus with 4 samples.

Results

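The small nuclear RNA (snRNA) genes of mouse skeletal muscle were examined in sequenced RNA from 2 fractions, isolated mitochondria and remaining tissue. Members were all rows with the Ensembl biotype snRNA, which gave 135 of the 16472 genes in the deposited table. All 135 had the same coordinates in the GENCODE M21 annotation of GRCm38, where 1383 snRNA genes are annotated, and each was a single transcript of 91 to 191 nt. Counts of Rnu6 and Rnu7 were not analysed here, and their sequences served only as references when members were placed in families.

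The tissue was skeletal muscle of WT mice, and both groups shared tissue and genotype. The labels name no age, strain, muscle or treatment of the animals. Isolated mitochondria (2 libraries) were obtained by lysis and differential centrifugation, and remaining tissue (2 libraries) carries a treatment label for tissue minus mitochondria, although its titles name total muscle and a legend of the study speaks of lysates of the total muscle. Whether the second group was whole or depleted tissue was therefore not settled. Separate animals were not stated for the replicates, so that the p-values below measure the spread between these libraries, which may be technical. During library preparation fragmentation was timed differently for mitochondrial samples, and its part in any difference cannot be told apart from that of the fraction.

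snRNAs are short nuclear transcripts that form the RNA core of the spliceosome. U1 pairs with the 5′ splice site, U2 with the branch point, and U4, U5 and U6 join as a tri-snRNP before catalysis, while U11, U12 and U6atac serve the minor spliceosome. Most of them are made by RNA polymerase II, exported to the cytoplasm, loaded there with a ring of Sm proteins and returned to the nucleus, whereas U6 is made by RNA polymerase III and binds LSm proteins. snRNA is therefore commonly used as a marker of nuclear RNA in fractionation experiments, with a share in the cytoplasm during assembly.

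To show what distinguishes the families, 5 transcripts are given from the GENCODE M21 transcripts on GRCm38, written 5′ to 3′ as DNA. Capitals mark the letters ATTTNTG or ATTTTTTG, which spell the site bound by the Sm ring, and 1 further element per family where it was searched, namely ACTTACCT for U1 (pairs with the 5′ splice site) and GTAGTA for U2 (pairs with the branch point).
Rnu1a1 (U1a, chr11:87422867-87423030, plus strand): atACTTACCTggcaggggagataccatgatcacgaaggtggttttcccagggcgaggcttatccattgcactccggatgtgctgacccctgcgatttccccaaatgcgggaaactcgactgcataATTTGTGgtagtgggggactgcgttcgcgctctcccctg
Rnu1b6 (U1b, chr3:96460024-96460189, minus strand): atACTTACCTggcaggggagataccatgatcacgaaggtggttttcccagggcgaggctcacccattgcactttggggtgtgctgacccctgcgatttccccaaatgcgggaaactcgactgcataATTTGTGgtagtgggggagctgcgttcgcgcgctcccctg
Rnu2-10 (U2, chr11:101658238-101658428, plus strand): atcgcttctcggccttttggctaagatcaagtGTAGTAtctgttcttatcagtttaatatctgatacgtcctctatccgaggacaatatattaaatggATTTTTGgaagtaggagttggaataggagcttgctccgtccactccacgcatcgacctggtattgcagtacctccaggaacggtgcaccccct
Gm24265 (U4, chr5:115489459-115489599, plus strand): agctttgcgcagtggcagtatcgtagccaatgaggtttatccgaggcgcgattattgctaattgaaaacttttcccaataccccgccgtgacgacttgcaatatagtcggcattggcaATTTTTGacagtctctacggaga
Rnu12 (U12, chr15:83149644-83149794, plus strand): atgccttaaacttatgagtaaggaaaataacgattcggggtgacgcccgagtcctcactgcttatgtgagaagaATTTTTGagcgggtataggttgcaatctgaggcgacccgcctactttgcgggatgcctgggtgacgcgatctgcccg

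Each member was placed in the family whose reference transcript it matched best. U1a and U1b differ at 8 positions between Rnu1a1 and Rnu1b6 (95.2% identity). U6 held 67 members, U1a 26, U2 15, U1b 12, U5 7, U4 3, U11 and U12 2 each and U6atac 1. Identity to the reference was at least 95% for 91 members and went down to 61.3%, so that the families include diverged copies. The U4 and U6atac references carry only Gm symbols, and their families were named from the known sequences.

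The Sm site letters were found on the sense strand of 62 members (45.9%), against 3.96% of 3838 other annotated transcripts in the same length range. On the antisense strand the shares were 8.15% and 5.6%. By family, 20 of 26 U1a, 11 of 12 U1b, all 15 U2, all 3 U4, all 7 U5, 1 of 2 U11 and both U12 members held them, but only 3 of 67 U6 members and not U6atac. ACTTACCT was in 19 U1a and 11 U1b members and GTAGTA in 13 U2 members. A match is a match of letters and does not show binding.

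Reads of such a gene family are hard to assign. Of the 135 members, 102 had a gene elsewhere in the annotation with at least 95% identity over at least 90% of their length, and 40 belonged to groups of members with identical sequence. Reads that align to several places were left out according to the methods of the study, yet identical copies carried many counts. The 7 U1a members with the sequence of Rnu1a1 each had an estimated 2958 to 7267 reads in the libraries of remaining tissue, although reads from within this sequence align equally well to all 7. How these reads were assigned cannot be told from the values, and the level of a single copy is therefore uncertain, while a family sum depends less on the choice among its copies but may miss reads left out. The sequencing depth was 42749263 and 35306106 assigned reads for the libraries of isolated mitochondria, against an estimated 15686713 and 15285013 for those of remaining tissue. Of these reads, 95.3% and 94.1% lay on the mitochondrial chromosome in isolated mitochondria and 22.3% and 20.5% in remaining tissue. All 10 skeletal muscle markers examined were above 0 in all 4 libraries, and their summed share of nuclear counts was 17.1% and 17.7% in remaining tissue and 6.13% and 5.86% in isolated mitochondria.

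To determine how much snRNA each fraction held, the members were summed. In remaining tissue the sum was 13089 normalized counts in replicate 1 and 15615 in replicate 2, where a normalized count is a gene count divided by the size factor of its library. In isolated mitochondria it was 13154 in replicate 1 but 4944 in replicate 2. In reads, this was an estimated 92165 and 109950 in remaining tissue, but only 1454 and 978 in isolated mitochondria. Normalized counts thus placed replicate 1 of isolated mitochondria level with remaining tissue on a basis of far fewer reads, because 1 read was worth 9.049 normalized counts in that library and 5.059 in replicate 2.

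As a share of all assigned counts, snRNA took 0.588% (95% Wilson interval 0.584 to 0.591) and 0.719% (0.715 to 0.724) in remaining tissue. In isolated mitochondria the share was 0.0034% (0.00323 to 0.00358) and 0.00277% (0.0026 to 0.00295). The means were 0.653% ± 0.0932 and 0.00308% ± 0.000447 (SD, n = 2 each), a 212-fold lower share in isolated mitochondria or a log2 ratio of -7.73. Scaled to this total, the median log2 fold change of the 6916 genes tested below was -6.90, so that most of this drop was not particular to snRNA. All intervals describe the counting error of reads alone, and those of remaining tissue rest on estimated reads. They may be too narrow, because the reads carried no molecular identifiers and 1 molecule may give several reads. The groups lay far apart relative to the spread between replicates, but 2 libraries against 2 allow no exact permutation p below 0.333, and none is given for the sums.

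Outside the mitochondrial chromosome, snRNA took 0.756% (0.751 to 0.761) and 0.905% (0.9 to 0.911) of counts in remaining tissue, against 0.072% (0.0684 to 0.0758) and 0.047% (0.0442 to 0.0501) in isolated mitochondria. The means of 0.831% ± 0.105 and 0.0595% ± 0.0176 (SD, n = 2 each) corresponded to a 14-fold lower share, with a log2 ratio of -3.80. Nuclear protein-coding genes fell as well, from 88.6% and 87.1% of counts outside the mitochondrial chromosome in remaining tissue to 3.91% and 7.13% in isolated mitochondria. In bulk RNA the snRNA share cannot tell fewer nuclei, less snRNA per nucleus and a change in the denominator apart.

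This denominator is dominated by 17 nuclear genes whose transcripts are copies of mitochondrial genes. They held 95% and 91.3% of the counts outside the mitochondrial chromosome in isolated mitochondria and 1.73% and 1.57% in remaining tissue. Without them, snRNA was 0.77% (0.765 to 0.775) and 0.92% (0.914 to 0.925) of nuclear counts in remaining tissue, and 1.44% (1.37 to 1.52) and 0.54% (0.507 to 0.575) in isolated mitochondria. Both libraries of remaining tissue thus lay between those of isolated mitochondria. The means were 0.845% ± 0.106 and 0.991% ± 0.638 (SD, n = 2 each), and the log2 ratio to the mean of remaining tissue was 0.77 for replicate 1 and -0.65 for replicate 2 of isolated mitochondria. The direction of the difference among nuclear RNA therefore depended on the replicate.

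**Figure D1:**
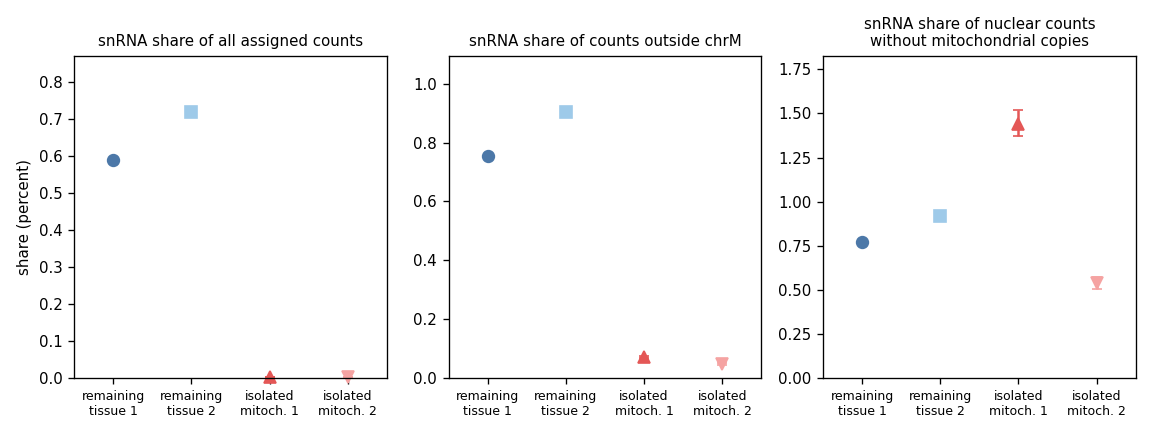
Share of snRNA in each library (percent) over 3 denominators, with 95% Wilson intervals as bars where they exceed the symbol. Both mitochondrial libraries were near 0 for the first and second denominator, but lay at 1.44% and 0.54% of nuclear counts without mitochondrial copies, on either side of remaining tissue.

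Other non-coding RNA had different shares under the last denominator. The ratio of isolated mitochondria to remaining tissue was 1.17 for snRNA (135 genes), 1.45 for snoRNA (122 genes) and 1.68 for scaRNA (14 genes), and all 3 classes were above remaining tissue in mitochondrial replicate 1 and below it in replicate 2. Nuclear protein-coding genes had a ratio of 0.897, with 78.3% and 81.9% of nuclear counts in isolated mitochondria. Malat1, a long RNA retained in the nucleus, had a ratio of 0.419, with 0.595% and 0.554% of nuclear counts in remaining tissue and 0.353% and 0.128% in isolated mitochondria, so that its groups did not overlap. Rn7sk, the nuclear 7SK RNA that holds a transcription elongation factor inactive, took 0.236% and 0.227% in remaining tissue and 0.353% and 0.217% in isolated mitochondria.

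The members were then compared by gene. The 44 members with a mean of at least 20 normalized counts over the 4 libraries were tested within the fit of all 6916 such genes (limma on log2 of the normalized count plus 1, Benjamini-Hochberg adjustment). Of the 44, 0 passed an adjusted p of 0.05 in either direction, where 16.6% of all tested genes did (7.32% higher and 9.3% lower). At an unadjusted p under 0.05 there were 4 members (9.09%), all lower, against 37% of all tested genes. With edgeR on reads 0 members were called as well (16% of all tested genes were higher and 12.6% lower), with 5 at an unadjusted p under 0.05 (42.4%). With DESeq2 on reads 0 were called (20.5% of all tested genes were higher and 13.3% lower), with 2 at an unadjusted p under 0.05 (41.8%).

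In the limma fit the log2 fold change was negative for 42 members and positive for 2, with a median of -0.84 and a range from -2.97 to 0.92, beside a median of -0.44 for all tested genes. With edgeR 39 were negative and 5 positive (median -0.57 beside -0.04), and with DESeq2 37 and 7 (-0.42 beside 0.01). Both libraries of isolated mitochondria lay below both of remaining tissue for 22 members (50%; 43.7% of all tested genes) and above for 0 (25.5%). The mitochondrial libraries disagreed with each other more than these counts show. Replicate 2 lay below both libraries of remaining tissue for 42 members, whereas replicate 1 lay below them for 23, between them for 12 and above both for 9. Replicate 2 of remaining tissue was above replicate 1 for all 44. The shares of all tested genes were not computed for these comparisons of single libraries, so that the counts may not be particular to snRNA. Without replicate 1 of isolated mitochondria the median log2 fold change of the members was -1.58, beside -0.28 for all tested genes. Leaving out replicate 2 instead gave a median of -0.20, beside -0.43 for all tested genes. In these fits the lone library is assumed to vary like the other group. Without replicate 1 or replicate 2 of remaining tissue 0 members were called in either direction (2.54% and 2.72% of all tested genes were lower).

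The direction by gene depended on the scaling in the same way as the sums. Scaled to the total of all genes, 44 of the 44 members were called lower, as were 96.8% of all tested genes, and scaled to the total outside the mitochondrial chromosome 42 were (81.6% of all tested genes). With the nuclear counts other than these copies as the total, 0 members were called lower (2.65% of all tested genes) or higher (16% of all tested genes). Of the fold changes, 24 were positive and 20 negative, and 22 of those negative under the deposited scaling had turned. The median of the members lay below that of all tested genes under each of these scalings, at -7.62 beside -6.90, -3.81 beside -3.34 and 0.04 beside 0.43, but not without mitochondrial replicate 2, at -0.20 beside -0.43.

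**Figure D2:**
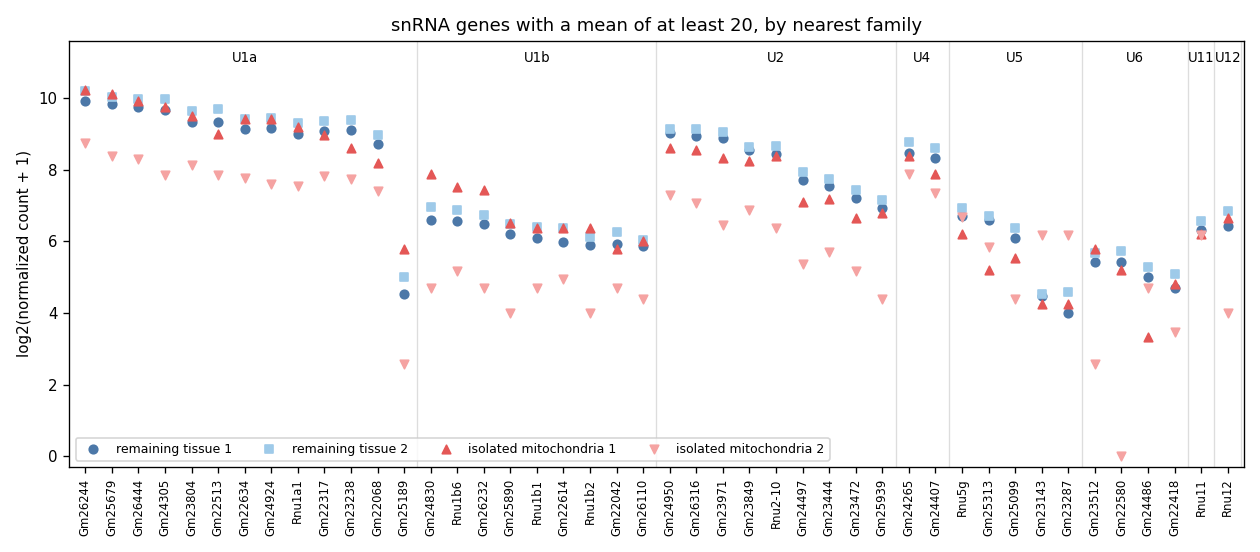
Levels of the 44 tested snRNA genes in each library as log2(normalized count + 1), grouped by nearest family. Replicate 2 of isolated mitochondria was the lowest library for most members, while Gm23143 and Gm23287 (U5) reached 71 normalized counts there.

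U1, which starts intron recognition, provided most of the snRNA counts. The U1a sum was 8075 and 9785 normalized counts in remaining tissue and 8660 and 3046 in isolated mitochondria, or 56861, 68902, 957 and 602 reads. U1a took 61.7% and 62.7% of snRNA counts in remaining tissue and 65.8% (95% Wilson interval 63.3 to 68.2) and 61.6% (58.5 to 64.6) in isolated mitochondria. Its share was therefore slightly above remaining tissue in mitochondrial replicate 1 and within counting error of it in replicate 2. Of 13 tested U1a members, 4 were below remaining tissue in both mitochondrial libraries, as were 43.7% of all tested genes.

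Gm26244, which differs from Rnu1a1 at 1 position (99.4% identity), had the highest level of any member, with 964 and 1166 normalized counts in remaining tissue and 1194 and 425 in isolated mitochondria. Its groups overlapped, and limma estimated a log2 fold change of -0.57 with an SE of 0.55 (adjusted p = 0.481). Rnu1a1 was at 511 and 634 in remaining tissue and at 579 and 187 in isolated mitochondria (log2 fold change -0.79, SE 0.60; adjusted p = 0.386). The library of mitochondrial replicate 1 lay between those of remaining tissue and replicate 2 far below them.

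Gm23238, a U1a gene with 4 differences from Rnu1a1 (97.6% identity), was lower in both mitochondrial libraries, at 389 and 212 against 551 and 667 (log2 fold change -1.08, SE 0.36; unadjusted p = 0.0382 and adjusted p = 0.115, limma). Its exon overlaps that of the annotated gene AC134906.1 on the other strand, and the strand setting of the counting was not stated. Gm22068 was likewise lower at 290 and 167 against 420 and 503 (log2 fold change -1.06, SE 0.34; unadjusted p = 0.033 and adjusted p = 0.106). Neither passed the threshold after adjustment.

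The 7 U1a members with the sequence of Rnu1a1 can be compared as copies, although how reads were assigned to them is not known. Their levels ranged from 420 (Gm22068) to 916 (Gm25679) normalized counts in remaining tissue replicate 1 and from 503 to 1032 in replicate 2. In isolated mitochondria they ranged from 290 to 1095 and from 167 to 329. The same copy was lowest and the same copy highest in all 4 libraries, with a difference of 2.18-fold, 2.05-fold, 3.78-fold and 1.97-fold. Their order in remaining tissue replicate 1 was shared with the other libraries at Spearman's rho of 1.00, 0.96 and 0.96, a description over 7 copies that share their sequence. Their flanking sequence was not compared.

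**Figure D3:**
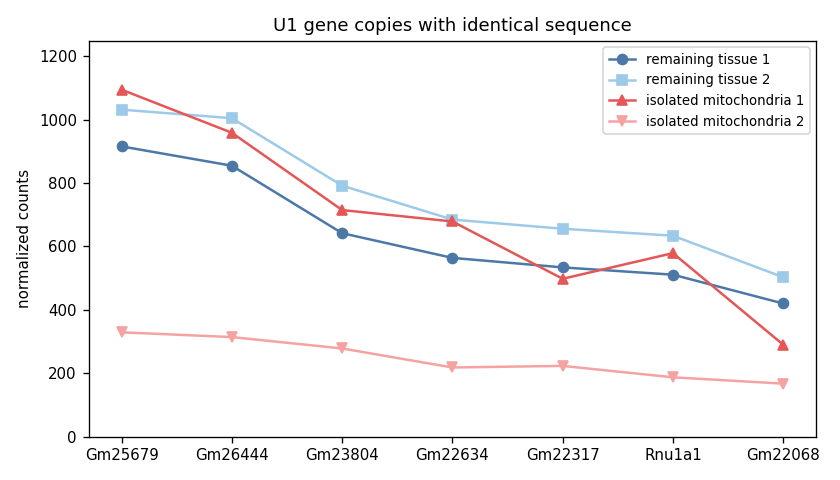
Normalized counts of 7 U1 genes with identical transcript sequence, 1 line per library. Gm25679 was highest and Gm22068 lowest in every library, with mitochondrial replicate 2 between 167 and 329 and mitochondrial replicate 1 between 290 and 1095.

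A cluster of 7 U1a genes on chromosome 12 (GRCm38 chr12:54696782-54738622) alone held 38% and 38.5% of snRNA counts in remaining tissue and 40.3% and 36.8% in isolated mitochondria. Its sum was 4974 and 6005 normalized counts in remaining tissue and 5304 and 1818 in isolated mitochondria. Rnu1a1 and Gm22068 lie as a pair on chromosome 11 (chr11:87422867-87426879), in an intron of Tex14 on the same strand, with a summed level of 931 and 1137 in remaining tissue and 869 and 354 in isolated mitochondria.

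U1b, the variant form of U1 in the mouse, was at lower levels and differed widely between the mitochondrial replicates. The U1b sum was 663 and 817 normalized counts in remaining tissue and 1056 and 215 in isolated mitochondria. Its share of snRNA counts was 5.07% and 5.23% in remaining tissue, 8.03% (6.76 to 9.56) in mitochondrial replicate 1 and 4.35% (3.28 to 5.87) in replicate 2. It was therefore above remaining tissue in 1 library and within counting error of it in the other.

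Gm24830, the highest U1b gene, was at 95 and 122 in remaining tissue and at 235 and 25 in isolated mitochondria (log2 fold change -0.47, SE 1.13; adjusted p = 0.781, limma). Rnu1b6, whose transcript is identical, was at 93 and 116 against 181 and 35 (log2 fold change -0.37, SE 0.85; adjusted p = 0.769). Rnu1b1 at 67 and 84 against 81 and 25 (-0.72, SE 0.63; adjusted p = 0.447) and Rnu1b2 at 58 and 69 against 81 and 15 (-0.83, SE 0.86; adjusted p = 0.513) are also identical to each other. In all 4 genes mitochondrial replicate 2 was far below remaining tissue, on 5 reads (Gm24830), 7 (Rnu1b6), 5 (Rnu1b1) and 3 (Rnu1b2). As identical pairs, the 4 genes are not separate observations. A run of 8 U1b genes on chromosome 3 (chr3:96328425-96488893) held 540 and 669 normalized counts in remaining tissue and 930 and 170 in isolated mitochondria.

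U2, which selects the branch point, had negative fold changes in all its tested members. Its sum was 2896 and 3264 normalized counts in remaining tissue and 2210 and 753 in isolated mitochondria, or 20394, 22985, 244 and 149 reads. All 9 tested U2 members were lower in both mitochondrial libraries than in both of remaining tissue, with log2 fold changes from -1.60 to -1.05 and a median of -1.24 beside -0.44 for all tested genes, but 0 of the 9 passed the test. Such non-overlap was seen for 43.7% of all tested genes. U2 took 22.1% and 20.9% of snRNA counts in remaining tissue and 16.8% (14.9 to 18.8) and 15.2% (13.1 to 17.6) in isolated mitochondria, and the ratio of U2 to U1a was 0.359 and 0.334 in remaining tissue and 0.255 and 0.247 in isolated mitochondria. This ratio does not depend on the scaling of the libraries, and its groups lay further apart than their replicates. However, 2 libraries each allow no informative permutation test. In the other family ratios computed the groups overlapped, such as U4 to U1a at 0.0831 and 0.0846 in remaining tissue and 0.0658 and 0.13 in isolated mitochondria. The 9 fold changes were also negative scaled to nuclear genes without copies (-0.70 to -0.15), with edgeR, with DESeq2 and without either mitochondrial replicate (median -2.15 without replicate 1 and -0.46 without replicate 2). These settings reuse the same libraries, and the 9 members are near-identical copies to which reads were assigned in an unknown way. Their shared sign is therefore not 9 separate observations.

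Rnu2-10 was at 348 and 405 normalized counts in remaining tissue and at 335 and 81 in isolated mitochondria (log2 fold change -1.18, SE 0.73; adjusted p = 0.305, limma). Gm24950, an identical copy and the highest U2 gene, was at 515 and 555 against 389 and 157 (log2 fold change -1.11, SE 0.48; adjusted p = 0.181). Both mitochondrial libraries were below remaining tissue for each of them. The 5 U2 genes on chromosome 11 (chr11:101604850-101658428) summed to 2197 and 2452 in remaining tissue and 1711 and 572 in isolated mitochondria. The 4 on chromosome 1 (chr1:72226240-72255198) summed to 495 and 576 against 354 and 115.

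**Figure D4:**
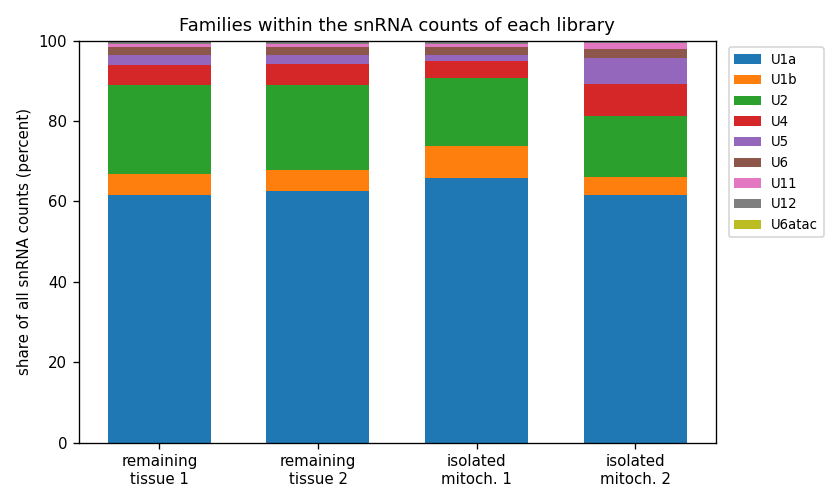
Share of each family in the snRNA counts of a library (percent, stacked to 100). U1a took 61.6% to 65.8% in every library, U2 was smaller in isolated mitochondria, and U4 and U5 were larger in mitochondrial replicate 2.

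U4, which keeps U6 inactive until the spliceosome is activated, was counted mainly at 2 genes that lie next to each other on chromosome 5 (chr5:115489459-115490394). The U4 sum was 671 and 828 normalized counts in remaining tissue and 570 and 395 in isolated mitochondria. Its share of snRNA counts was 5.13% and 5.3% in remaining tissue, 4.33% (3.4 to 5.51) in mitochondrial replicate 1 and 7.99% (6.44 to 9.84) in replicate 2, so that the mitochondrial libraries lay on both sides of remaining tissue.

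Gm24265 was at 351 and 439 in remaining tissue and at 335 and 233 in isolated mitochondria (log2 fold change -0.49, SE 0.27; adjusted p = 0.262, limma). Gm24407, which differs from it at 2 positions (98.6% identity), was at 320 and 388 against 235 and 162 (log2 fold change -0.85, SE 0.27; unadjusted p = 0.0342 and adjusted p = 0.108). Both genes were lower in both mitochondrial libraries without passing the adjusted threshold.

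U5, which holds the exons in place during splicing, had 3 negative and 2 positive fold changes among its 5 tested members. Without mitochondrial replicate 2 all 5 were negative (-1.43 to -0.04). The U5 sum was 304 and 351 normalized counts in remaining tissue and 189 and 319 in isolated mitochondria, and the mitochondrial values rest on 21 and 63 reads. Its share of snRNA counts was 2.32% and 2.25% in remaining tissue, 1.44% (0.947 to 2.2) in mitochondrial replicate 1 and 6.45% (5.07 to 8.16) in replicate 2.

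Gm25313 was at 95 and 103 in remaining tissue and at 36 and 56 in isolated mitochondria, and had the smallest adjusted p among the members (log2 fold change -1.12, SE 0.32; adjusted p = 0.0884, limma). Rnu5g, its neighbour on chromosome 9, was at 103 and 120 against 72 and 101, with both mitochondrial libraries below remaining tissue (log2 fold change -0.38, SE 0.28; adjusted p = 0.377). Both lie in introns of Parp16 on the other strand.

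Gm23287 and Gm23143 on chromosome 4 were the 2 members with a positive fold change. Gm23287 was at 15 and 23 in remaining tissue and at 18 and 71 in isolated mitochondria (log2 fold change 0.92, SE 0.78; adjusted p = 0.434, limma). Gm23143 was at 21 and 22 against 18 and 71 (log2 fold change 0.72, SE 0.75; adjusted p = 0.513). In both genes mitochondrial replicate 2 was the high library, with 14 reads, and replicate 1 was within or below the range of remaining tissue, with 2 reads. Gm25099, the third U5 gene of this cluster, went the other way at 67 and 81 against 45 and 20. Gm23287 and Gm25099 were the only tested members without a near-identical gene elsewhere.

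U6, the catalytic snRNA, had the most members and few counts. The 67 members summed to 286 and 334 normalized counts in remaining tissue and 270 and 110 in isolated mitochondria, and 63 of them did not reach the minimum mean. Per 100 nt of the reference transcript, U6 had an estimated 1878 and 2193 reads in remaining tissue, near the 1846 and 2130 of U5, against 3351 and 4135 of U4, 10677 and 12034 of U2 and 34671 and 42013 of U1a. Its share of snRNA counts, at 2.19% and 2.14% in remaining tissue and 2.05% and 2.22% in isolated mitochondria, was within the counting error of the mitochondrial libraries. A group of 18 members shares its sequence with a total of 43 annotated genes, and this level is therefore one of the reads that could be placed.

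Gm23512, the highest U6 gene, was at 42 and 50 in remaining tissue and at 54 and 5 in isolated mitochondria (log2 fold change -1.37, SE 1.16; adjusted p = 0.432, limma). Gm22580, within the Dmd gene, was at 42 and 52 against 36 and 0 (log2 fold change -2.97, SE 1.90; adjusted p = 0.317). The fold change of Gm22580 depends on the pseudocount, since its value in mitochondrial replicate 2 was 0 reads, which allows up to 3 reads.

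The minor spliceosome snRNAs were at low levels. Rnu11, which recognises the 5′ splice site of minor introns, was at 79 and 93 in remaining tissue and at 72 and 71 in isolated mitochondria (log2 fold change -0.26, SE 0.24; adjusted p = 0.464, limma). It overlaps an exon of Gm28872 on the other strand. Rnu12, which binds their branch point, was at 85 and 115 against 100 and 15 (log2 fold change -1.31, SE 0.97; adjusted p = 0.373). The ratio of the U11 to the U12 sum was 0.891, 0.785 and 0.826 in both libraries of remaining tissue and mitochondrial replicate 1, and 5.07 in mitochondrial replicate 2, where U12 rested on 3 reads. Gm25541, the U6atac gene, was at 20 and 20 in remaining tissue and at 0 and 15 in isolated mitochondria and was not tested.

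**Figure D5:**
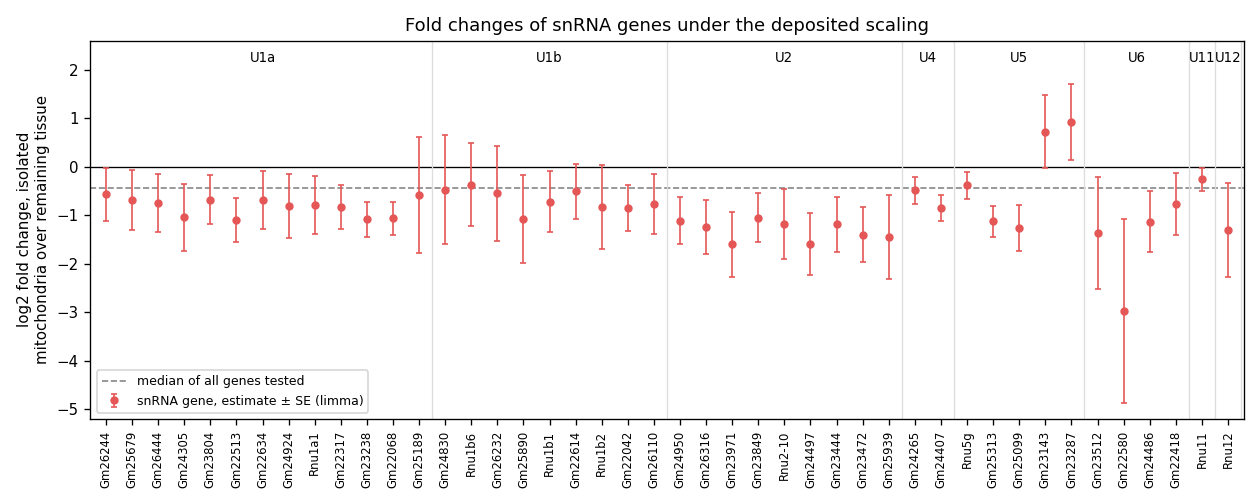
Log2 fold change of isolated mitochondria over remaining tissue for each tested snRNA gene (limma estimate with SE), with the median of all tested genes as a dashed line at -0.44. Of 44 members 42 were below 0, and the 2 above 0 were the U5 genes Gm23143 and Gm23287.

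The 91 members below the minimum mean held little of the snRNA. They summed to 294 and 333 normalized counts in remaining tissue and to 369 and 165 in isolated mitochondria, with 41 and 33 reads in the latter, while the tested members made up 96.7% to 97.9% of snRNA counts in each library. Of these 91 members, 52 were at 0 in both mitochondrial libraries. The last member inside the minimum was Gm22418 with a mean of 23.8, and the first outside was Gm23511 with a mean of 18. The 5 highest outside were Gm23511 (10 and 11 in remaining tissue, 36 and 15 in isolated mitochondria), Gm25360 (20 and 21, 9 and 20), Gm22003 (23 and 27, 9 and 10), Gm23240 (9 and 11, 45 and 0) and Gm25581 (4 and 4, 45 and 5).

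To see whether mRNAs of the proteins that bind or build snRNPs behaved similarly, 6 lists with 98 symbols were examined. Of these, 94 were in the table and 45 were tested, of which 0 were higher (7.32% of all tested genes), 2 were lower (9.3%) and 6 had an unadjusted p under 0.05 (37%). Their median log2 fold change was -0.32. Both genes that fell belong to the list of U4/U6.U5 proteins, in which 2 of 13 tested genes were lower. Prpf8, the central scaffold of the spliceosome, was at 348 and 332 normalized counts in remaining tissue and at 100 and 121 in isolated mitochondria (log2 fold change -1.62, SE 0.21; adjusted p = 0.0222, limma). Snrnp200, the helicase that unwinds U4 from U6, was at 197 and 185 against 90 and 101 (log2 fold change -0.99, SE 0.21; adjusted p = 0.0493). Their mitochondrial values rest on 10 to 24 reads, and relative to nuclear counts without copies neither was called lower, where 0 of the 45 were lower (2.65% of all tested genes) and 2 higher (16%). The call of Snrnp200 did not hold with a minimum mean of 5, edgeR or DESeq2, with adjusted p of 0.063, 0.0641 and 0.0633, in a range from 8.59e-05 to 0.751 over its alternatives. Without either library of remaining tissue 0 of the 45 were lower, while 12 were lower (40.1% of all tested genes) and 8 higher (24.9%) without mitochondrial replicate 1, and 20 lower (46.2%) and 8 higher (23.8%) without replicate 2.

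In the other lists 0 genes passed the test in either direction, out of 4 tested Sm protein genes (median log2 fold change -0.09), 2 LSm protein genes (-0.82), 9 genes of U1 and U2 proteins (-0.57), 5 of minor spliceosome proteins (-0.61) and 12 of snRNA transcription, processing and assembly (0.20). Snrpb, a core Sm protein, was at 99 and 90 in remaining tissue and at 90 and 56 in isolated mitochondria (log2 fold change -0.41, SE 0.33; adjusted p = 0.408, limma). Lsm6, of the ring on U6, was at 34 and 36 against 27 and 15 (-0.77, SE 0.45; adjusted p = 0.284), and Sf3b2, of the U2 snRNP, at 178 and 178 against 136 and 172 (-0.22, SE 0.22; adjusted p = 0.507). Zcrb1, of the U11/U12 snRNP, was at 110 and 115 against 45 and 106 (-0.69, SE 0.48; adjusted p = 0.346), and Strap, a partner of the SMN complex that loads Sm proteins, at 137 and 117 against 36 and 76 (-1.26, SE 0.44; adjusted p = 0.123). For these 5 genes the mitochondrial values were below or at the edge of those of remaining tissue, and 0 of the 5 passed the test. They do not stand for their lists, since 16 of the 45 tested genes had a positive fold change and 29 a negative one. In the list of snRNA transcription, processing and assembly, which holds Strap, 7 of 12 were positive.

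For comparison, Rn7sk was at 4009 and 3856 normalized counts in remaining tissue and at 3221 and 1988 in isolated mitochondria (log2 fold change -0.64, SE 0.29; adjusted p = 0.191, limma). Malat1 was at 10127 and 9405 against 3221 and 1174 (log2 fold change -2.33, SE 0.53; adjusted p = 0.0578). Both were lower in both mitochondrial libraries and did not pass the threshold in this fit. Malat1 was called lower with edgeR (adjusted p = 0.0376), with DESeq2 (adjusted p = 0.0277) and without any 1 library (adjusted p from 0.000142 to 0.0149), but not without a minimum mean (0.111), with a minimum mean of 5 (0.103) or relative to nuclear counts without copies (0.142). Rn7sk was called lower without mitochondrial replicate 1 (log2 fold change -0.98; adjusted p = 0.0176, limma) and not without any other library (adjusted p from 0.063 to 0.685).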

How the data were processed

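RNA sequencing was performed by the authors on 4 libraries of WT mouse skeletal muscle, 2 of isolated mitochondria and 2 of remaining tissue, from 10 ng of RNA with a stranded low-input kit. According to the methods and the submitters' processing notes (Trimmomatic 0.39, STAR 2.7.10a, featureCounts 2.0.2, DESeq2 1.30.1; versions from the notes), reads were trimmed, aligned to mm10 with a raised limit on mismatches and counted over exons, and reads shared by several genes or genomic positions were not counted. The strand setting is not given in the sources used here. Treatment with RNase A is described for heart mitochondria; for muscle it is not given in the sources used here. The deposited values are a signal, gene counts divided by size factors and rounded by the authors, called normalized counts.

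Whole reads were recovered for isolated mitochondria from steps of 9.049 (99.96% of 10508 low values whole) and 5.059 (99.98% of 11660). Remaining tissue was estimated at 7.04 reads per normalized count for both libraries. Genes with a mean of at least 20 (6916) were tested with limma 3.58.1 in R 4.3.3 on log2(normalized count + 1), trend, two-sided, Benjamini-Hochberg over all of them, threshold 0.05. Fold changes are on this scale, where those of low genes depend on the pseudocount and the method in either direction. Gm22580 was at -2.97 here, -1.60 with edgeR and -1.15 with DESeq2, and Gm23143 at 0.72, 1.49 and 1.45. The median of all tested genes was -0.44, -0.04 and 0.01 in these fits. Alternatives were other pseudocounts, minimum means and scalings, a replicate block, each library left out, and edgeR 4.0.16 and DESeq2 1.42.0 on reads, where limma called 506 genes higher and 643 lower, edgeR 1104 and 869, and DESeq2 1420 and 919.

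Transcripts, coordinates and overlaps were from GENCODE M21 (GRCm38), and near-identical genes and the 17 copies of mitochondrial genes were found with BLAST 2.17.0. Sequences of U5 and U6 members are not reported here. The members, families, protein lists and markers were chosen with earlier results of these data known. The rule for named genes covered all members with a mean of at least 20 (some of them by symbol in the plots only), those with a symbol other than a Gm number, the next 5 by mean, per protein list the genes past the threshold or else the highest, and Malat1 and Rn7sk. Fold changes of single members were given for 20 of the 44, namely those with a symbol other than a Gm number, the highest of each family, those with an unadjusted p under 0.05, a positive fold change or the lowest one; the others were summarised by family. This choice was made after their values were seen.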

Additional observations from a re-analysis of the deposited data

How the results depend on the processing

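Under the other pseudocounts, a minimum mean of 5 and edgeR, 0 snRNA genes were higher or lower, and 0 snRNP protein genes were higher and 2 lower. The 2 were Prpf8 and Snrnp200 under the other pseudocounts, but only Prpf8 was shared with a minimum mean of 5 (with Snapc3) and edgeR (with Ints1). Without a minimum mean, 28 snRNA genes (18.4% of all genes), all among the 91 with low values, and 10 snRNP protein genes were called lower. The scaling decided the direction. Scaled to the total of all genes, 44 snRNA and 45 snRNP protein genes were lower (96.8% of all tested genes), and scaled to the total outside the mitochondrial chromosome 42 of each (81.6%), where the median of all genes moved to -6.90 and -3.34 and that of the members to -7.62 and -3.81. Gm23143 and Gm23287 then turned to -5.64 and -5.43, and to -2.14 and -1.93. Scaled to nuclear genes without copies, 0 snRNP protein genes were lower and 2 higher, the medians were 0.43 for all genes and 0.04 for the members, and the fold changes turned positive for Gm26244 (0.32), Rnu1a1 (0.10), Gm24265 (0.40), Gm24407 (0.04), Gm24830 (0.41), Rnu1b6 (0.51), Rnu5g (0.51), Rnu11 (0.63), Rnu1b1 (0.16), Rnu1b2 (0.05), Snrpb (0.48), Lsm6 (0.10), Sf3b2 (0.67), Zcrb1 (0.19) and Rn7sk (0.26). Among the genes given with a fold change above, Gm24830 (0.21), Rnu1b6 (0.04) and Sf3b2 (0.06) turned positive with edgeR. With DESeq2 Gm24830 (0.59), Rnu1b6 (0.35), Rnu11 (0.02) and Sf3b2 (0.11) did, and 1 snRNP protein gene was higher and 1 lower. Of the 44 members, 5 were positive with edgeR and 7 with DESeq2. Leaving out 1 library at a time, 0 to 35 snRNA genes were lower and 0 to 1 higher, and 0 to 20 snRNP protein genes were lower and 0 to 8 higher, where 2.54% to 46.2% of all tested genes were lower. For snRNA genes, the largest count and the largest share of all tested genes came from different fits and do not belong together. Without mitochondrial replicate 1 the median log2 fold change of the members was -1.58, beside -0.28 for all tested genes. Without mitochondrial replicate 2 it was -0.20, beside -0.43. With 1 library left out, the sign of the fold change turned, always without mitochondrial replicate 2, for Gm26244 (-1.32 to 0.17), Rnu1a1 (-1.60 to 0.02), Gm24830 (-2.06 to 1.12), Rnu1b6 (-1.54 to 0.80), Rnu12 (-2.64 to 0.02), Rnu1b1 (-1.55 to 0.11), Rnu1b2 (-2.01 to 0.35), Gm23512 (-2.96 to 0.23), Gm23143 (-0.24 to 1.68) and Gm23287 (-0.04 to 1.88). Without members that have near-identical genes, the log2 ratio of the snRNA share was -6.91 for all counts and -3.02 outside the mitochondrial chromosome, against -7.73 and -3.80 with all members, whose ratio was 0.23 over nuclear genes without copies. The cause of these changes was not tested. Replicate numbers were shared by the groups, but the deviations of same-numbered libraries correlated at only 0.14 over 6916 genes in 2 pairs, and nothing else pairs them. With the replicate block, 13 snRNA genes (9 U2 and 4 U1a; 16.5% of all tested genes) and 1 snRNP protein gene (Prpf8, not Snrnp200) were lower, and Malat1 was called (adjusted p = 8.13e-07, limma, the lowest of its alternatives, which reached 0.142). Depth limits the single members, with a median of 17.5 reads per tested member in mitochondrial replicate 1 and 14 in replicate 2.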
